A study of Mus musculus with 47 samples.

Results

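The DNA replication machinery is the set of proteins that open, copy and close the genome once in each S phase. The 46 genes described here were chosen by symbol from a list of replication genes, with no measured value in the rule, and all 46 were found among the 22632 genes of the table of expression values. They cover origin licensing, the MCM helicase, helicase activation, primase and polymerases, the sliding clamp and its loader, flap processing and ligation, fork protection, nucleotide supply, chromatin assembly and a pair of transcription factors active around S phase. The study sequenced messenger RNA from mouse cells in reprogramming, the conversion of fibroblasts towards induced pluripotent stem (iPS) cells. Its title names a stabilization competency signature, and its comparison is between clones named SC and clones named SI, names that the labels do not spell out.

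The cells were secondary mouse embryonic fibroblasts given doxycycline, the drug that starts their reprogramming. There were 4 SC clones and 4 SI clones, numbered 1 to 4 in each class. Libraries at d14 and d21 had 14 and 21 days of doxycycline, and those at d27 had 27 days of it. Libraries at d22 and d23 had 21 days of it followed by 1 or 2 days without it. The SC clones were also sampled as iPS cells, with 21 days of the drug and 6 days without it. The 3 feeder libraries came from fibroblasts that had no doxycycline, and the labels do not say whether those cells had been made non-dividing. Each library within a class and day comes from a different clone, so the spread given is between clones, and p-values measure only that spread. For feeders the spread is between the 3 feeder libraries. The same clones recur on each day, but the main fits between days and the interaction did not pair libraries by clone. Fits with the clone as a block are alternatives. Another alternative, a single fit of all 12 groups, has no clone term. It treats the libraries of a clone on different days as independent, so its counts need that caution.

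Replication begins when the origin recognition complex, Cdc6 and Cdt1 load the MCM2-7 helicase onto DNA, a step that geminin (Gmnn) restrains. Cdc7 kinase, Mcm10 and the GINS complex then switch the helicase on, and polymerase alpha-primase, delta and epsilon copy the strands with the clamp Pcna. Transcription of many of these genes is controlled by E2F factors and rises as cells enter the cycle, and pluripotent cells of the mouse are known for a short first gap phase and a large share of cells in S phase.

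Expression is given as RPKM, reads scaled for transcript length and library size, so that levels can be compared between genes. Differences are of log2(RPKM + 1), which understates the change of weakly expressed genes. The 47 libraries held 10909 to 11931 genes at 1 RPKM or more, and the depth read from the values was 31.4 to 98.2 megareads in the 40 libraries that allowed it. A gene was called when its Benjamini-Hochberg adjusted p from limma, over all genes tested in that comparison, was under 0.05. Counts of members at an unadjusted p under 0.05, without overlap between groups or called in alternative fits come without the share over all genes. They describe the members only. In whole cultures, fewer replicating cells and less of each RNA per cell cannot be told apart. Markers of pluripotent cells and of fibroblasts differed in the direction of the labels. The mean of log2(RPKM + 1) over 10 markers of pluripotent cells was 0.04 to 0.15 in feeders, with Dppa4 listed at 0, and 6.08 to 6.82 in SC iPS cells. The 16 fibroblast markers averaged 8.21 to 8.25 in feeders and still 5.17 to 6.54 in iPS cells. Macrophage markers (8 genes) averaged 3.09 to 3.11 in feeders and 1.46 to 1.81 in iPS cells, and which cells they came from was not tested. After withdrawal clone SC2 and clone SI3 stood apart from the other clones of their class, and counts that move without them are given both ways.

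The mean of log2(RPKM + 1) over the 46 genes was 2.28 ± 0.03 (SD, n = 3) in feeders and 4.52 ± 0.28 (SD, n = 4) in SC iPS cells. In SC clones it was 3.51 ± 0.23 at d14, 4.37 ± 0.19 at d21, 4.15 ± 0.36 at d22, 4.10 ± 0.59 at d23 and 4.41 ± 0.17 at d27 (SD, n = 4 each). In SI clones it was 3.61 ± 0.56 at d14, 3.89 ± 0.20 at d21, 3.17 ± 0.41 at d22, 2.48 ± 0.38 at d23 and 4.22 ± 0.09 at d27 (SD, n = 4 each). At d23 the SC clones stood at 4.32, 3.22, 4.40 and 4.47, with clone SC2 low, and the SI clones at 2.72, 2.54, 1.94 and 2.74, with clone SI3 low. All 4 SC libraries at d23 were above all 4 SI libraries, and the SI clones had stood at 3.62, 3.87, 4.10 and 3.97 at d21. In the order of group means from feeders upward (SI d23, SI d22, SC d14, SI d14, SI d21, SC d23, SC d22, SI d27, SC d21, SC d27, SC iPS), each neighbouring pair had overlapping library values. The level is a description of the genes and carries no test.

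**Figure D1:**
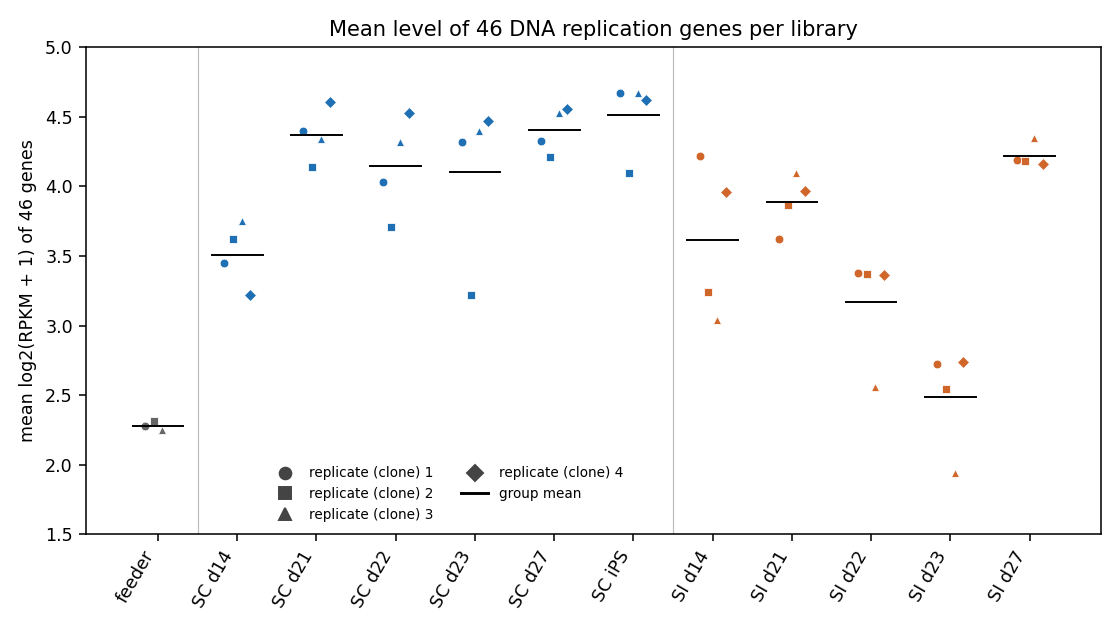
Mean of log2(RPKM + 1) over the 46 replication genes (y axis) in each library of the 12 groups (x axis), with 1 point per library, its shape giving the clone number, and a bar for the group mean. The SI clones at d23 lie between 1.94 and 2.74, beside feeders at 2.25 to 2.31 and below the 4 SC clones at d23.

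The genes moved much as a block across the 12 groups. The correlation of each gene's 12 group means with the mean of the other members had a median of 0.98 and was at least 0.9 in 40 of 46 genes. These points share libraries and scaling, and the values are descriptive. The group with the lowest mean RPKM was the feeders for 37 genes and SI d23 for the other 9. The highest was SC iPS for 27 genes, SI d27 for 7, SC d21 and SC d23 for 4 each, SI d21 for 2, and SC d22 and SC d27 for 1 each. From lowest to highest group the range was 0.58 to 4.71 on the log2 scale, with a median of 2.39. Mybl2, which encodes a transcription factor of the cell cycle programme, had the widest range, and E2f1, which encodes an E2F activator, the narrowest.

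The genes that followed the block least were E2f1 (correlation 0.58), Rrm1 (0.72), Gins2 (0.79), Rrm2 (0.87), Tyms (0.88) and Tk1 (0.89). Among them are all 4 members of nucleotide supply: Rrm1 and Rrm2 encode ribonucleotide reductase, Tyms thymidylate synthase and Tk1 thymidine kinase. Rrm1 was highest in SI clones at d21, with 126.36, 122.56, 63.94 and 97.07 RPKM, and Rrm2, Tyms and Tk1 were each highest at SI d27. E2f1 kept a group mean between 6.19 and 9.71 RPKM everywhere, feeders included.

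**Figure D2:**
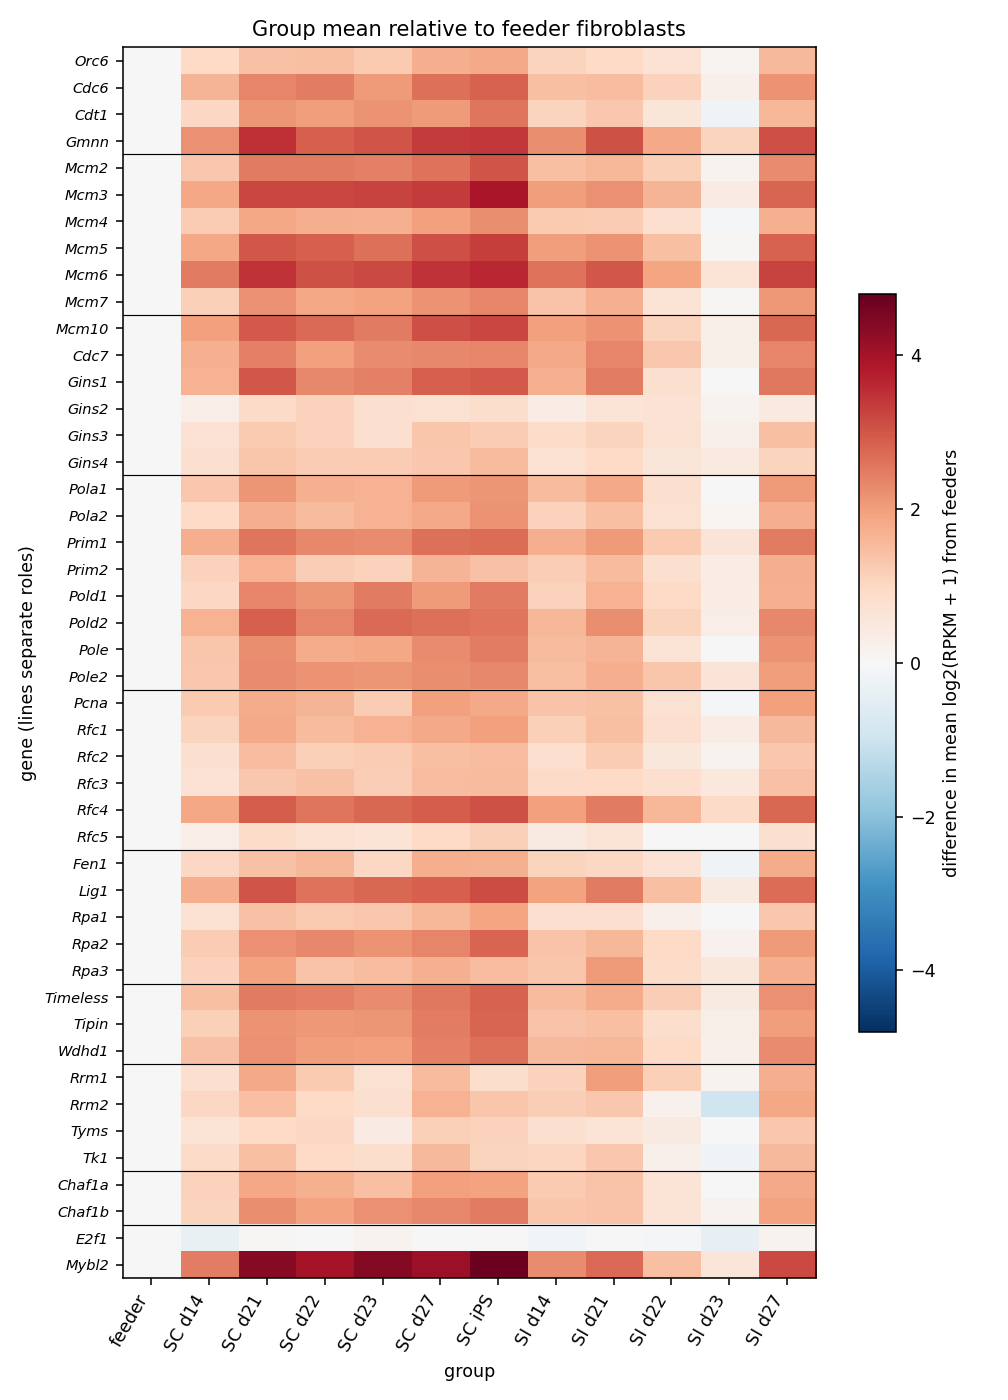
Difference of each group's mean log2(RPKM + 1) from the feeder mean (colour) for the 46 genes (rows, with lines between roles) in the 12 groups (columns). Mybl2 reaches 4.71 in SC iPS cells, E2f1 stays pale in every group, and the SI d23 column is close to 0 for most genes.

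Promoter sequences were examined for what the genes share beyond their levels. RefSeq promoters (build GRCm38.p6) were matched for 37 of the 46 genes, and the 250 bases before the start were searched on both strands, overlapping matches included, for 4 forms of the E2F site: TTTCCCGC, TTTGGCGC, TTTCGCGC and TTTGCCGC. At least 1 of these was present in 7 of 37 members (18.9%), against 583 of 27025 genes with a promoter in the table (2.16%) and 8 of 33 other replication genes (24.2%). The CHR letters TTTGAA or TTTAAA, known from promoters of mitotic genes, were in 7 of 37 members (18.9%), in 28.1% of all genes and in 9 of 13 mitosis genes (69.2%). A match is a description of letters and no evidence of binding, and a promoter without a match may hold other forms. Among the MCM genes, 3 of 5 with a promoter had an E2F match, and Mcm6 had 3. The stretch around each match follows, 5′ to 3′ on the gene's own strand, with the matched letters (or their reverse complement) in capitals, because these 7 genes are the members with a match. They include Mcm6, with one of the largest falls described later, and also Rfc3 and Gins3, with some of the smaller ones.
Cdc6, chr11:98907983-98908062, plus strand: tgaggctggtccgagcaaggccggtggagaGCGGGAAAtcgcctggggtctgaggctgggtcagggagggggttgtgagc
Mcm5, chr8:75109326-75109405, plus strand: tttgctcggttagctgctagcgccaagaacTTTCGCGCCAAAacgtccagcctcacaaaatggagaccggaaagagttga
Mcm6, chr1:128359735-128359845, minus strand: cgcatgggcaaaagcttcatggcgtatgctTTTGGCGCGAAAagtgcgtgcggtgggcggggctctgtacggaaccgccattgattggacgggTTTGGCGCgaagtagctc
Mcm7, chr5:138171999-138172078, minus strand: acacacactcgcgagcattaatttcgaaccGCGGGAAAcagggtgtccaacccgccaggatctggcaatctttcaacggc
Gins3, chr8:95633479-95633558, plus strand: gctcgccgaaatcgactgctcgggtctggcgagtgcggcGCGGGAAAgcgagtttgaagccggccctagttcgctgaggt
Pola1, chrX:93632244-93632323, minus strand: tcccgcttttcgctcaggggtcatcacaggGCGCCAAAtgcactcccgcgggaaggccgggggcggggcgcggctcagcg
Rfc3, chr5:151651209-151651288, minus strand: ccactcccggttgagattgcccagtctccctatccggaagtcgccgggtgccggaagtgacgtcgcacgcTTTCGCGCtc
The matches lay 138 bases before the start in Cdc6 and Pola1, 165 in Mcm7, 41 in Gins3 and 10 in Rfc3, counted to the first matched base. In Mcm5 and in Mcm6 matches on opposite strands overlapped.

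The first comparison asked how far reprogramming cells at d14 stood above fibroblasts. In SC clones at d14, 45 of 46 genes were higher than in feeders, against 40.8% of 11815 genes tested, and 1, E2f1, was lower, against 24.9%. The members' median difference was 1.16 on the log2 scale, and that of all genes 0.11. The leading rises were in Mcm6, a helicase subunit, with 37.81, 59.42, 54.01 and 28.14 RPKM against 7.18, 6.80 and 6.66 in feeders (log2 2.48 ± 0.23 SE, limma adjusted p = 0.000109), in Mybl2 (log2 2.46 ± 0.22 SE, limma adjusted p = 0.000107) and in Gmnn (log2 2.20 ± 0.17 SE, limma adjusted p = 5.64e-05). For all 3, no SC library overlapped a feeder library. E2f1 had 6.16, 5.88, 6.15 and 7.34 RPKM against 7.83, 8.98 and 8.41 (log2 -0.35 ± 0.09 SE, limma adjusted p = 0.00839).

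In SI clones at d14, 44 of 46 genes were higher than in feeders, against 32.1% of 11751 genes, and 0 were lower, against 12%, with a median of 1.33 beside 0.11 for all genes. The same feeders serve both comparisons. Mcm6 stood at 74.60, 32.67, 28.41 and 69.09 RPKM (log2 2.60 ± 0.36 SE, limma adjusted p = 0.00885), so that clones SI1 and SI4 were above SI2 and SI3. The clones split the same way in other markers: fibroblast means were 6.29 and 6.43 in SI1 and SI4 and 8.02 and 7.92 in SI2 and SI3, and macrophage means 1.71 and 1.97 against 2.82 and 2.97. The part of these markers in the split was not tested. Rfc5 (log2 0.42 ± 0.16 SE, limma adjusted p = 0.0654) and E2f1 (log2 -0.14 ± 0.11 SE, limma adjusted p = 0.316) were not called. The count for SI clones fell to 0 when any 1 of the 3 feeder libraries was left out and to 21 without clone SI4, while 43 or 44 members kept an unadjusted p under 0.05 in those fits.

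SC iPS cells had the highest mean level over the 46 genes, 4.52, overlapping SC d27 at 4.41, but not in every role: nucleotide supply averaged 4.05 there and 4.57 in SI d27. Of the 46 genes, 45 were higher than in feeders, against 41.2% of 12210 genes, and 0 were lower, against 38.8%, with a median of 2.32. Mybl2 had 55.12, 33.75, 48.05 and 37.21 RPKM against 0.61, 0.84 and 0.59 in feeders (log2 4.71 ± 0.17 SE, limma adjusted p = 3.26e-07). Mcm3, a helicase subunit, had 166.97, 111.31, 165.18 and 165.15 RPKM against 9.38, 9.64 and 8.42 (log2 3.90 ± 0.16 SE, limma adjusted p = 5.53e-07). Both groups were far apart for these genes, and clone SC2 was the lowest iPS library for both. E2f1, with 8.89, 7.43, 9.30 and 8.92 RPKM, was not called (log2 0.03 ± 0.10 SE, limma adjusted p = 0.778).

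**Figure D3:**
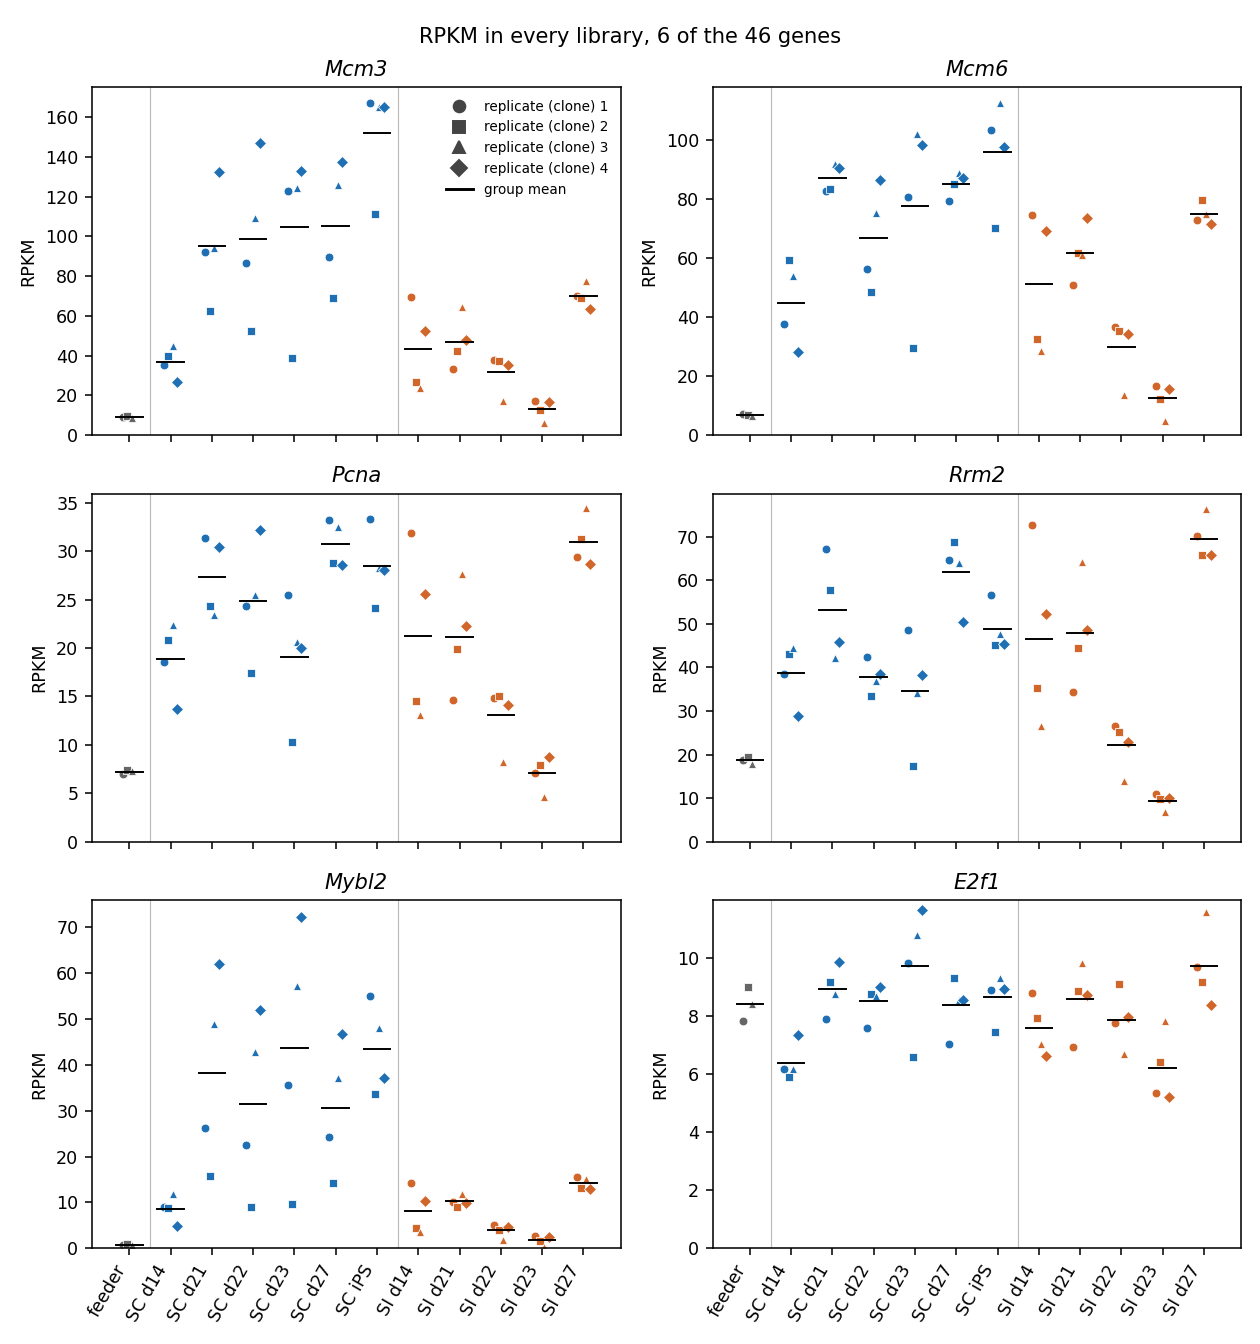
RPKM (y axes, from 0) of Mcm3, Mcm6, Pcna, Rrm2, Mybl2 and E2f1 in each library of the 12 groups, with 1 point per library, its shape giving the clone number, and a bar for the group mean. Mcm3 runs from 8.42 in a feeder library to 166.97 in an iPS library, and in SI clones at d23 it has 6.00 to 17.15.

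From d14 to d21 on doxycycline the genes rose in SC clones. Of 46, 43 were higher at d21, against 22.0% of 11806 genes, and 0 lower, against 20.6%, with a median of 0.82 beside 0.06 for all genes. Mybl2 went from 8.92, 8.67, 11.74 and 4.93 RPKM to 26.32, 15.75, 48.91 and 62.02 in clones 1 to 4 (log2 1.91 ± 0.40 SE, limma adjusted p = 0.00496). Pold1, the catalytic subunit of polymerase delta, went from 5.58, 5.85, 7.44 and 4.29 RPKM to 15.74, 12.04, 18.15 and 19.14 (log2 1.35 ± 0.18 SE, limma adjusted p = 0.000639). Mcm3 rose by 1.33 ± 0.23 (SE, limma adjusted p = 0.00197). All 4 clones were higher at d21 for each of these genes, and 43 members were higher in every SC clone. Rrm2 (log2 0.44 ± 0.18 SE, limma adjusted p = 0.0746), Fen1, the flap nuclease (log2 0.39 ± 0.17 SE, limma adjusted p = 0.0963), and Tyms (log2 0.27 ± 0.18 SE, limma adjusted p = 0.251) were not called. The blocked fit on clones called 41 members, and the fit without clone SC1 called 30. Markers moved over the same week: 14 of 16 fibroblast markers and 6 of 7 tested macrophage markers fell, and 5 of 9 tested pluripotent markers rose. Fibroblast means went from 7.05 to 8.03 at d14 to 5.87 to 6.35 at d21, and macrophage means from 2.36 to 3.04 to 1.68 to 2.21, without overlap in either. The part of these markers in the rise was not tested.

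In SI clones over the same week 0 of 46 were called in either direction by limma, against 0% of 11738 genes, and 4 members had an unadjusted p under 0.05. The clones differed: the members' median change was -0.57 and -0.07 in clones 1 and 4 and 0.57 and 1.10 in clones 2 and 3. Clones SI1 and SI4 were the ones with higher replication and lower fibroblast and macrophage means at d14. Mcm6 went from 74.60, 32.67, 28.41 and 69.09 RPKM to 51.01, 61.75, 60.93 and 73.54 in clones 1 to 4. A single fit of all 12 groups called 2 members higher at d21.

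The classes were next compared while the drug was present. At d14 limma called 0 of 46 between SC and SI, against 0% of 11714 genes, no member had an unadjusted p under 0.05, and the median was -0.12. Rrm1, the member with the highest level at d14, had 43.3 RPKM in SC and 55.0 in SI clones (log2 -0.27 ± 0.30 SE, limma adjusted p = 0.999). At d21 it called 0, against 0% of 11757 genes. The differences were positive in 44 of 46 members, with a median of 0.47 beside -0.00 for all genes. Of the members, 30 had an unadjusted p under 0.05 and 14 had groups that did not overlap. Neither count over all genes is given here, so they describe the members only. Mybl2 at d21 had 15.75 to 62.02 RPKM in SC clones and 8.92 to 11.90 in SI clones. Without clone SC2, the lowest SC library for most members at d21, the count at that day was 3.

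Removal of doxycycline for 1 day was followed by falls in SI clones. Of 46 genes 25 were lower at d22 than at d21, against 18.8% of 11878 genes, and 0 were higher, against 19.1%. The median was -0.71, beside -0.02 for all genes. Gins1, a subunit of GINS, went from 8.89, 11.52, 9.40 and 11.09 RPKM to 2.70, 3.51, 1.03 and 3.48 (log2 -1.67 ± 0.25 SE, limma adjusted p = 0.00193). Mybl2 went from 10.09, 8.92, 11.90 and 9.90 RPKM to 5.11, 4.00, 1.73 and 4.57 (log2 -1.26 ± 0.24 SE, limma adjusted p = 0.00512). Gmnn went from 30.86, 38.02, 27.01 and 41.24 RPKM to 16.45, 18.27, 6.12 and 19.14 (log2 -1.23 ± 0.32 SE, limma adjusted p = 0.0183). Each of these genes was lower in every clone, with SI3 the lowest at d22. Over the same day 9 of 16 fibroblast markers, 6 of 7 tested macrophage markers and 3 of 6 epithelial markers rose. Macrophage means went from 1.72 to 2.43 at d21 to 2.79 to 3.72 at d22, and fibroblast means from 5.73 to 7.34 to 7.11 to 8.48, with SI3 the highest for both at d22. The part of these markers in the falls was not tested.

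By role, the genes called after 1 day in SI clones were unevenly spread, and differences between roles or genes were not tested. Among primase and polymerase genes 7 of 8 were called lower, and Pole2 was not called (log2 -0.40 ± 0.23 SE, limma adjusted p = 0.197). Among the 6 MCM genes only Mcm6 and Mcm7 were called lower. Mcm2 to Mcm5 had differences of -0.73 to -0.40 that were not called, and each was lower in 3 of the 4 clones. Gins2 was the only member with a positive difference (log2 0.06 ± 0.20 SE, limma adjusted p = 0.827). Rrm1, at 74.98, 68.56, 26.03 and 61.54 RPKM, was not called (log2 -0.87 ± 0.35 SE, limma adjusted p = 0.0767). The count was 9 without clone SI2, 9 without clone SI4 and 25 without clone SI3.

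In SC clones 3 of 46 genes were lower at d22 than at d21, against 4.75% of 11949 genes, and 0 were higher, against 3.42%, with a median of -0.19. These were the primase subunit Prim2, from 24.30, 22.49, 19.78 and 20.90 RPKM to 14.47, 14.88, 15.07 and 16.31 (log2 -0.50 ± 0.10 SE, limma adjusted p = 0.0289), the kinase gene Cdc7 (log2 -0.47 ± 0.11 SE, limma adjusted p = 0.0389) and Pola1, the catalytic subunit of polymerase alpha (log2 -0.44 ± 0.11 SE, limma adjusted p = 0.0475). Prim2, Cdc7 and Pola1 had no overlap between the days. With the clone as a block 18 members were called lower and 0 higher, and the share of all genes called in that fit is not given here. The count was 0 without clone SC1, SC2 or SC3, 5 without SC4, 1 with no filter, 1 after rescaling, and 0 in the fit of all groups. Mcm3 was not called (log2 0.01 ± 0.33 SE, limma adjusted p = 0.992), and its difference was -0.06 without SC3 and -0.04 without SC4.

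After 2 days without doxycycline 45 of 46 genes were lower in SI clones than at d21, against 32.0% of 11796 genes, and 0 were higher, against 22.7%. The median was -1.38, beside -0.12 for all genes, and 43 genes had groups that did not overlap. The member not called was Rfc3, a clamp loader subunit, with 3.72, 4.98, 7.25 and 4.71 RPKM at d21 and 3.58, 4.33, 2.00 and 4.24 at d23 (log2 -0.45 ± 0.23 SE, limma adjusted p = 0.123). All 46 differences were negative in each of the 4 SI clones. Their median was -2.21 in SI3 and -1.23 to -0.82 in the other 3 clones.

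The largest falls in SI clones were in Gins1, Mcm6 and Rrm2. Gins1 went to 1.42, 0.66, 0.56 and 2.00 RPKM at d23 (log2 -2.42 ± 0.21 SE, limma adjusted p = 0.000104). Mcm6 went from 51.01, 61.75, 60.93 and 73.54 RPKM to 16.72, 12.39, 4.95 and 15.81 (log2 -2.33 ± 0.32 SE, limma adjusted p = 0.000583). Rrm2, the small subunit of ribonucleotide reductase, went from 34.40, 44.51, 64.10 and 48.64 RPKM to 11.04, 9.82, 6.89 and 9.92 (log2 -2.21 ± 0.20 SE, limma adjusted p = 0.000111). The groups did not overlap for any of the 3. Within GINS, whose 4 proteins act as 1 complex, Gins3 fell by 0.82, Gins4 by 0.49 and Gins2 by 0.47, less in size than Gins1; the differences between subunits were not tested. Every role had falling members: all 6 MCM genes (median -1.74), all 4 of nucleotide supply (-1.67), all 8 primase and polymerase genes (-1.39), all 5 of flap, ligase and single-strand binding (-1.39), all 6 of helicase activation (-1.36), all 3 of fork protection (-1.36), all 4 of origin licensing (-1.34), both transcription factors (-1.28), both of chromatin assembly (-1.27) and 5 of 6 clamp and loader genes (-1.10). Over the 4 fits that left out a clone the count was 41 to 44, and it was 44 without SI3.

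In SC clones over the same 2 days 1 of 46 genes was lower, against 2.81% of 11975 genes, and 0 were higher, against 0.985%, with a median of -0.23 beside -0.07 for all genes, and a fit of all 12 groups called 6 lower. The 1 was Rrm1, the large subunit of ribonucleotide reductase, which went from 96.14, 120.57, 80.71 and 55.64 RPKM to 45.88, 34.48, 42.42 and 38.71 (log2 -1.06 ± 0.23 SE, limma adjusted p = 0.0434) and was lower in all 4 clones without overlap. That call was lost with no filter on low values (limma adjusted p = 0.062), after rescaling (limma adjusted p = 0.0526) and without clone SC1, SC2 or SC3 (limma adjusted p of 0.0841 to 0.281). Mcm3 was not called, with 92.12, 62.40, 94.37 and 132.34 RPKM at d21 and 122.74, 38.60, 124.56 and 132.94 at d23 (log2 0.03 ± 0.41 SE, limma adjusted p = 0.977). Its difference was -0.09 without SC1 and -0.09 without SC3. Clone SC2 differed from the others: all 46 of its genes were lower at d23, with a median of -0.85, while the medians of SC1, SC3 and SC4 were -0.04, 0.10 and -0.17.

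**Figure D4:**
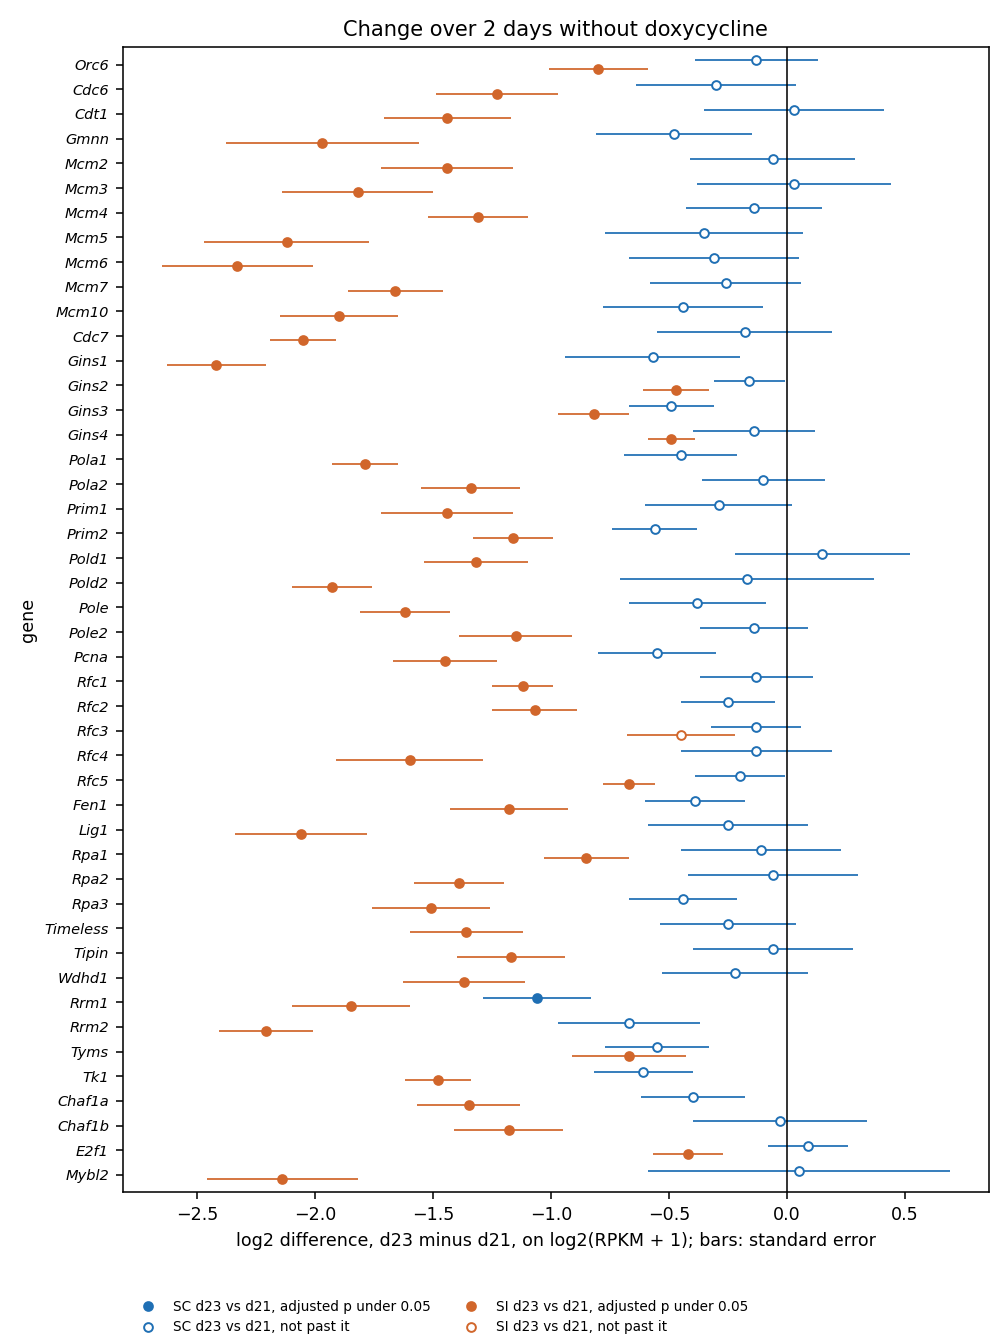
Log2 difference of d23 minus d21 (x axis) for the 46 genes (y axis) in SC clones (blue) and SI clones (orange), with bars for the standard error and filled points for an adjusted p under 0.05. The SI points run from -2.42 to -0.42 and the SC points from -1.06 to 0.15.

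Whether the 2-day change differed between the classes was tested as an interaction. Limma called 0 of 46 genes, against 0% of 12714, with adjusted p of at least 0.123. All 46 differences were positive (less negative or more positive in SC), with a median of 1.15 beside 0.04 for all genes. Of the members, 38 had an unadjusted p under 0.05, and that count over all genes is not given here. Mybl2 had the largest difference (log2 2.19 ± 0.76 SE, limma adjusted p = 0.138), followed by Mcm6 (log2 2.02 ± 0.51 SE, limma adjusted p = 0.123). Of the genes with the lowest adjusted p, Cdc7 had 9.56, 8.72, 8.10 and 7.80 RPKM in SC clones at d21 and 7.78, 2.59, 10.82 and 12.58 at d23, and in SI clones 7.15, 7.83, 8.47 and 8.18 at d21 and 1.10, 1.55, 0.71 and 1.34 at d23 (log2 1.87 ± 0.42 SE, limma adjusted p = 0.123). Its SI libraries at d23 lay below every other library of the 4 groups. In the other roles the member with the smallest adjusted p was Pola1 (log2 1.34 ± 0.28 SE), Lig1 (log2 1.80 ± 0.47 SE), Rrm2 (log2 1.55 ± 0.38 SE), Rfc1 (log2 0.99 ± 0.28 SE), Cdt1 (log2 1.47 ± 0.49 SE), Chaf1a, a CAF-1 subunit (log2 0.95 ± 0.32 SE), and Timeless, the fork protection partner of Tipin (log2 1.11 ± 0.39 SE). Lig1 is an example: it had 19.37, 21.07, 20.26 and 21.99 RPKM in SI clones at d21 and 5.92, 4.47, 1.69 and 6.19 at d23. In SC clones at d23 it had 29.91, 10.75, 33.75 and 35.32. Its log2 changes from d21 were 0.03, -1.26, 0.18 and 0.04 in clones SC1 to SC4, so that SC2 fell too. In clones SI1 to SI4 they were -1.56, -2.01, -2.98 and -1.68. With the clone as a block 29 members were called, all higher in SC. A fit of all 12 groups called 28, and the fit without clone SC2 called 39. The share of all genes called in these alternative fits is not given here, so their counts describe the members only. Tyms had the smallest difference (log2 0.12 ± 0.35 SE, limma adjusted p = 0.832).

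At d22 the classes were compared within that day. Limma called 0 of 46, against 0% of 11880 genes, with adjusted p from 0.1. All 46 differences were positive, with a median of 0.99 beside -0.06 for all genes. Of the members, 42 had an unadjusted p under 0.05 and 41 had groups that did not overlap. The same counts over all genes are not given here. Mybl2 had 22.46, 8.98, 42.83 and 51.97 RPKM in SC clones and 5.11, 4.00, 1.73 and 4.57 in SI clones (log2 2.55 ± 0.50 SE, limma adjusted p = 0.1). Rrm1 had the smallest difference, at 58.6 ± 17.6 and 57.8 ± 21.9 RPKM (SD, n = 4 each). The count was 42 in the fit of all groups, which has no clone term, and 40 without clone SC2. For these fits too the share of all genes called is not given.

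At d23, 45 of 46 genes were higher in SC than in SI clones, against 23.0% of 11805 genes, and 0 were lower, against 19.5%. The median was 1.72, beside -0.01 for all genes, and the groups of 40 genes did not overlap. The adjusted p of the 45 ran from 0.0221 to 0.0478. Tyms was not called: it had 4.94, 2.80, 2.87 and 2.65 RPKM in SC and 2.24, 2.27, 1.78 and 2.69 in SI clones (log2 0.39 ± 0.18 SE, limma adjusted p = 0.105). The count was 45 without clone SC2 and 36 without SI1, but 0 without any 1 of SC1, SC3, SC4, SI2, SI3 or SI4, with 44 to 46 members at an unadjusted p under 0.05 in those fits and an adjusted p for Mcm3 of 0.0507 to 0.08.

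Licensing and helicase genes are taken first, beside a median of 2.19 for the pair of transcription factors and 1.83 for fork protection. All 4 licensing genes were higher in SC, with a median of 1.86. Cdt1, the loader of the helicase, had 34.73, 11.56, 38.82 and 37.57 RPKM in SC clones and 7.33, 5.34, 2.24 and 5.87 in SI clones (log2 2.30 ± 0.42 SE, limma adjusted p = 0.0221). Even the low library, SC2, was above every SI library. All 6 MCM genes were higher, with a median of 2.38, and Mcm3 differed most (log2 2.85 ± 0.45 SE, limma adjusted p = 0.0221). Mcm3 had 17.15, 12.46, 6.00 and 16.73 RPKM in SI clones, so that its lowest SC library, at 38.60 RPKM in SC2, exceeded its highest SI library.

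The helicase activation genes were all higher in SC at d23, with a median of 1.36. Mcm10, which helps to start the assembled helicase, had 10.20, 3.53, 10.74 and 12.20 RPKM in SC clones and 1.54, 0.94, 0.27 and 1.62 in SI clones (log2 2.23 ± 0.37 SE, limma adjusted p = 0.0221). Its groups did not overlap. Gins1 differed by 2.39 ± 0.41 (SE), whereas Gins4 differed by 0.75 ± 0.24 (SE), Gins2 by 0.57 ± 0.16 (SE) and Gins3 by 0.54 ± 0.17 (SE).

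Primase and polymerase genes were all higher in SC at d23, with a median of 1.66. Pola1 had 7.98, 3.11, 7.01 and 6.47 RPKM in SC clones and 1.47, 0.97, 0.87 and 1.47 in SI clones (log2 1.65 ± 0.25 SE, limma adjusted p = 0.0221). The SI libraries were all below the SC libraries. Differences in this role ran from 0.75 for Prim2 to 2.41 for Pold2, a polymerase delta subunit. The clamp and loader genes differed less in size, with a median of 1.18. Rfc1, the large loader subunit, had 27.93, 14.57, 32.61 and 32.03 RPKM in SC and 11.46, 8.52, 7.76 and 10.90 in SI clones (log2 1.33 ± 0.26 SE, limma adjusted p = 0.0221).

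Genes for lagging-strand completion and single-strand binding had a median of 1.34 at d23. Rpa2, a subunit of the single-strand binding protein RPA, had 21.60, 7.23, 19.43 and 22.13 RPKM in SC clones and 3.76, 3.98, 2.30 and 4.11 in SI clones (log2 1.95 ± 0.33 SE, limma adjusted p = 0.0221). Lig1, the replicative ligase, differed by 2.32 ± 0.43 (SE). For fork protection the median was 1.83, and Tipin, the partner of Timeless, had 55.79, 20.54, 51.00 and 55.33 RPKM in SC and 13.18, 10.67, 8.29 and 13.54 in SI clones (log2 1.83 ± 0.32 SE, limma adjusted p = 0.0221). No library of SC overlapped SI for Rpa2 or Tipin.

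Nucleotide supply had the smallest median at d23, 0.78, with 3 of 4 genes called. Rrm2 had 48.61, 17.44, 34.23 and 38.21 RPKM in SC clones and 11.04, 9.82, 6.89 and 9.92 in SI clones (log2 1.70 ± 0.29 SE, limma adjusted p = 0.0221). Rrm1, the other subunit of the same enzyme, differed by 0.57 ± 0.18 (SE, limma adjusted p = 0.04). Chaf1b, a subunit of the histone chaperone CAF-1, had 9.64, 3.32, 12.28 and 12.74 RPKM against 1.73, 1.58, 0.67 and 1.62 (log2 2.02 ± 0.37 SE, limma adjusted p = 0.0221). Mybl2 had the largest difference of the 46, with 35.58, 9.61, 57.26 and 72.34 RPKM in SC and 2.67, 1.65, 0.21 and 2.48 in SI clones (log2 3.83 ± 0.61 SE, limma adjusted p = 0.0221). E2f1 had 9.81, 6.58, 10.79 and 11.65 RPKM against 5.33, 6.40, 7.82 and 5.20, with overlap between the groups (log2 0.56 ± 0.19 SE, limma adjusted p = 0.0447).

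Other genes of the pathway were counted from lists at d23, where 23.0% of all genes tested were higher in SC and 19.5% lower. Without any 1 of SC1, SC3, SC4, SI2, SI3 or SI4 only 2 to 9 genes of the whole table were called. The list counts at d23, like the members' count, therefore do not hold without any 1 of these libraries, and the cause was not tested. Of 36 tested replication genes outside the 46, 29 were higher in SC and 0 lower, with a median of 1.21. Among them Nasp, a histone chaperone, had 49.5 ± 20.1 and 7.40 ± 3.33 RPKM in SC and SI (SD, n = 4 each; log2 2.57 ± 0.44 SE, limma adjusted p = 0.0221), Dut, which removes dUTP, differed by 1.86 ± 0.31 (SE), and Ticrr, a factor of helicase activation, by 1.92 ± 0.28 (SE). Orc4, Donson, Mcm9, Pole3, Pole4, Rnaseh2c and Top1 were not called. All 16 mitosis genes were higher, with a median of 2.11, among them Bub1, Kif11 and Cenpf.

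Regulators of entry into S phase were mixed at d23. Of 15 tested E2F and Rb family genes 9 were higher, including the repressors E2f7 (log2 1.16 ± 0.24 SE) and E2f8 (log2 1.23 ± 0.26 SE), and E2f3 and Rb1 were not called. Of 12 genes of the G1/S step (cyclins, their kinases and other regulators) 7 were higher. Among them were the cyclin gene Ccne1 (log2 1.36 ± 0.27 SE) and the regulators Skp2 (log2 1.05 ± 0.21 SE) and Fbxo5 (log2 2.56 ± 0.44 SE). The cyclin gene Ccnd2 was lower (log2 -1.63 ± 0.54 SE). Of 5 tested CDK inhibitors 3 were lower in SC. Cdkn2b, which blocks the kinases that act on Rb, had 20.1 ± 14.8 RPKM in SC and 59.2 ± 8.56 in SI (SD, n = 4 each; log2 -1.77 ± 0.44 SE, limma adjusted p = 0.0255). Cdkn2a differed by -1.38 ± 0.37 (SE) and Cdkn1a by -1.30 ± 0.32 (SE), and Cdkn1b was higher in SC (log2 0.39 ± 0.14 SE, limma adjusted p = 0.0497).

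In SI clones the same lists were read against d21. Of 35 tested replication genes outside the 46, 29 fell and 1, Pole4, rose, and all 16 mitosis genes fell. Cdkn2b rose from 7.49 ± 3.52 to 59.2 ± 8.56 RPKM (SD, n = 4 each; log2 2.89 ± 0.24 SE, limma adjusted p = 9.27e-05), and Cdkn2a rose by 1.09 ± 0.21 (SE). Cdkn1a was not called (log2 0.25 ± 0.16 SE, limma adjusted p = 0.218), and Cdkn1b fell (log2 -1.15 ± 0.28 SE, limma adjusted p = 0.00859). In SC clones Cdkn2b (log2 0.86 ± 0.47 SE, limma adjusted p = 0.378) and Cdkn2a (log2 0.17 ± 0.33 SE, limma adjusted p = 0.837) were not called between d23 and d21.

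Markers of other cells moved beside the replication genes. In SI clones from d21 to d23, 14 of 16 fibroblast markers, 3 of 6 epithelial markers and 6 of 7 tested macrophage markers rose. The mean of log2(RPKM + 1) over the fibroblast markers was 5.73 to 7.34 in SI at d21 and 7.66 to 8.70 at d23, beside 5.24 to 7.58 in SC at d23 and 8.21 to 8.25 in feeders. Within d23 the library with the highest fibroblast mean was SI3, at 8.70, and the highest of the SC libraries was SC2, at 7.58. These are the same libraries that had the lowest replication levels of their classes. They also had the lowest means of pluripotent markers in their classes at d23, 4.15 in SC2 and 0.56 in SI3. Their epithelial means differed in direction: SC2 was the highest SC library, at 7.36, and SI3 the lowest SI library, at 3.63. Between the classes at d23, 11 of 16 fibroblast markers and 4 of 7 tested macrophage markers were lower in SC and all 10 markers of pluripotent cells were higher, while limma called 0 of 6 epithelial markers, 0 of them at an unadjusted p under 0.05. Of 3 tested Y-linked genes 1, Ddx3y, was lower in SC. The SC clones differed among themselves: the mean over 4 Y-linked genes at d23 was 0.91, 1.23, 2.04 and 3.06 in SC1 to SC4. In SI clones it was 2.08 to 2.95. Of the endothelial markers none could be tested there, and their mean was 0.28 to 0.32 in SI. The part of these markers in the replication differences was not tested.

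**Figure D5:**
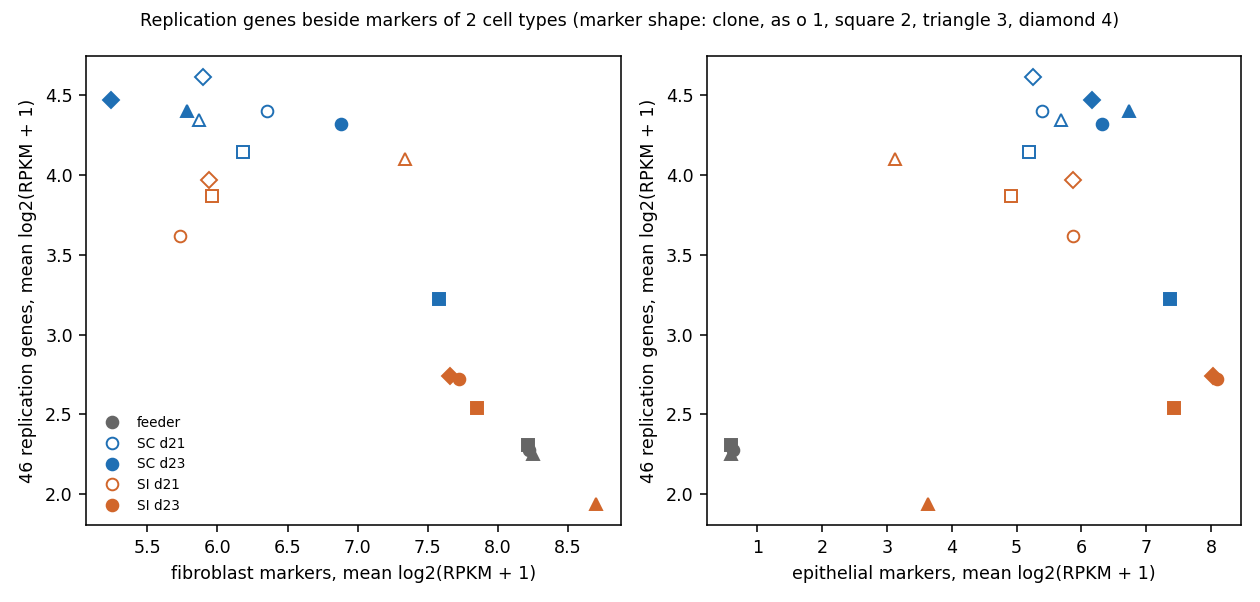
Mean log2(RPKM + 1) of the 46 replication genes (y axes) against that of fibroblast markers (left x axis) and epithelial markers (right x axis) in feeders and in SC and SI libraries at d21 (open) and d23 (filled), with 1 point per library, its shape giving the clone. SI3 at d23 has the highest fibroblast mean, 8.70, and the lowest replication mean, 1.94. Its epithelial mean is 3.63, and the other 3 SI clones at d23 have epithelial means of 7.43 to 8.09.

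SI clones at d23 were then set beside fibroblasts that had never had the drug. Of 44 genes tested, 1 was higher than in feeders, against 21.2% of 11741 genes, and 2 were lower, against 14.6%, with a median of 0.17 beside 0.06 for all genes. Cdc6 and Mcm10 were below the filter in this comparison. Gins4 was higher, with 14.05, 14.21, 11.62 and 14.29 RPKM against 10.14, 9.76 and 8.94 (log2 0.45 ± 0.09 SE, limma adjusted p = 0.0134). Rrm2 was lower, with 11.04, 9.82, 6.89 and 9.92 RPKM against 18.85, 19.48 and 17.85 (log2 -0.94 ± 0.14 SE, limma adjusted p = 0.0065). E2f1 was lower too (log2 -0.40 ± 0.13 SE, limma adjusted p = 0.0497). These 3 had no overlap between the groups. Rrm1, at 32.33, 30.94, 18.83 and 27.26 RPKM against 24.63, 23.50 and 22.91, was not called (log2 0.17 ± 0.17 SE, limma adjusted p = 0.451). Clone SI3 set the count: without it 28 genes were higher and 2 lower than in feeders, and the count was 1 without feeder 2 or feeder 3.

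Markers differed between the SI clones and the feeders in other ways. All 6 epithelial markers were higher in SI at d23 than in feeders, with a median of 5.85, among them the cell adhesion gene Cdh1, with 103 and 0.117 RPKM, and Krt8, with 385 and 0.737 RPKM. These are group means, and clone SI3 was far below the others: the epithelial mean was 8.09, 7.43, 3.63 and 8.03 in SI1 to SI4. In feeders it was 0.60 to 0.63. Of 16 fibroblast markers 1 was higher and 1 lower, with Col1a1 at 1590 and 1650 RPKM. Limma called 0 of 7 tested macrophage markers, 1 had an unadjusted p under 0.05, and Lyz2 had 194 and 157 RPKM. Limma called 0 of 16 mitosis genes, with a median of 0.12, and 0 had an unadjusted p under 0.05. A p that misses the threshold does not show that levels were equal.

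At d27 the cells had been kept on the drug throughout. Limma called 0 of 46 members between the classes, against 0.382% higher and 0.252% lower of 11513 genes, and 13 members had an unadjusted p under 0.05, with a median of 0.18. Mybl2 had 24.16, 14.20, 37.14 and 46.84 RPKM in SC and 15.55, 13.21, 15.09 and 12.97 in SI clones (log2 0.93 ± 0.32 SE, limma adjusted p = 0.16). Without clone SC2 16 members were called higher in SC. The share of all genes called in that fit is not given here, so the count describes the members only. The SI libraries at d27 were close to each other, with Mcm3 at 69.81, 69.19, 77.68 and 63.59 RPKM, while SC clones had 89.44, 69.00, 125.88 and 137.56.

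Against d21, SI clones at d27 had positive differences in 43 of 46 genes, with a median of 0.38. Limma called 0 members, against 0% of 11590 genes in either direction. Of the members, 29 had an unadjusted p under 0.05, and that count over all genes is not given here. Fen1 had the largest, from 10.89, 14.85, 23.06 and 16.09 RPKM to 27.22, 27.35, 29.80 and 25.65 (log2 0.77 ± 0.19 SE, limma adjusted p = 0.0929). All 4 clones were higher at d27. The count was 29 without clone SI3 (26 higher and 3 lower) and 2 in the fit of all groups, again without the share of all genes called. In SC clones limma called 0 members between d27 and d21, against 0% higher and 0.00847% lower of 11804 genes, and 2 had an unadjusted p under 0.05, with a median of 0.05. Rrm1 had 72.1 RPKM at d27 and 88.3 at d21 there (log2 -0.30 ± 0.30 SE, limma adjusted p = 0.739). The fit with the clone as a block called 2, both lower.

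SC iPS cells were set beside SC clones at d27. Limma called 0 of 46, against 0.420% higher and 1.20% lower of 11675 genes, and 6 members had an unadjusted p under 0.05, with a median of 0.13 beside -0.08 for all genes. Rrm1 had the most negative difference, from 80.58, 100.19, 62.41 and 45.08 RPKM at d27 to 49.29, 35.07, 45.93 and 45.45 in iPS cells (log2 -0.65 ± 0.23 SE, limma adjusted p = 0.112). Mybl2 had the most positive (log2 0.60 ± 0.34 SE, limma adjusted p = 0.26). With the clone as a block 2 members were called higher. The count was 2 without clone SC2 and 1 without SC4.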

How the data were processed

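Messenger RNA libraries were made by the authors from column-purified RNA with a TruSeq kit, per the labels' protocols. The submitters' processing notes name CASAVA 1.8 and build mm9. The annotation is not given in the sources used here. The deposited table holds 1 value per gene and library, and its unit is not named. It was read as RPKM from the values: multiplied by exon length and added over genes, the deposited RPKM came to between 0.788 and 0.998 gigabases in each library. Depth was read from the steps of short genes, up to a whole multiple, and 1 read in a 1 kb gene equals 0.0102 to 0.0318 RPKM.

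The members and lists were chosen with earlier results of these data known. For each of 19 comparisons a separate model of its libraries was made with limma 3.58.1 (R 4.3.3; lmFit, then eBayes with a trend) on log2(RPKM + 1). A gene entered a comparison if the number of its libraries at 1 RPKM or more reached the size of the smaller group. Two-sided p-values were adjusted over all tested genes by the Benjamini-Hochberg method. Scripts were tested on simulated data. For SC against SI at d23 and the interaction, the member of each role with the smallest adjusted p was named. Elsewhere up to 3 rises and 3 falls, members moving against the rest and the highest member not called were named. Other genes were added after their values were seen. Days followed the sample characteristics where the treatment text differed for d22 and d23.

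Clones pair days within a class by their labels. Same-clone deviations correlated at 0.17 to 0.91, except at -0.35 for SI2 between d14 and d21. SC and SI clones share only a number. Promoters were planned for 1 gene per role and extended to all members. Tables and figures used Python 3.11.15, pandas 2.3.3 and matplotlib 3.10.9.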

Additional observations from a re-analysis of the deposited data

Results flagged for a closer look

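Of 33 values tested for a library that stands apart in a group of 4, where chance flags about 1 in 20, 9 did so. Clone SC2 was low at d23 in the mean level of the 46 genes (3.22, the others 4.32 to 4.47) and in iPS cells (4.10, the others 4.62 to 4.67). At d23 it was also low in Cdt1 (11.56 RPKM, the others 34.73 to 38.82), Mcm3 (38.6 RPKM, the others 122.74 to 132.94) and Tipin (20.54 RPKM, the others 51.0 to 55.79). Clone SI3 was low in the mean level at d22 (2.56, the others 3.36 to 3.38), high at d27 (4.35, the others 4.16 to 4.19) and low in Chaf1b at d23 (0.67 RPKM, the others 1.58 to 1.73). Clone SC1 was high in Tyms at d23 (4.94 RPKM, the others 2.65 to 2.87).

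From d21 to d27 every SC clone was lower and every SI clone higher in Lig1 and in Mybl2. The SC change minus the SI change was -0.34 for Lig1 and -0.70 for Mybl2 on the log2 scale, and this difference was not tested.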

How the results depend on the processing

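Of 203 alternative counts of members called, 160 stayed within 1.5 times the count reported, with higher and lower members added together. Direction was not checked for these 160, and counts of 0 that stayed at 0 are among them. For the counts outside the 160 the cause was not tested, unless fewer libraries is the change itself. Of 203 alternative counts of all genes called, 121 stayed within 1.5 times. For SC against SI, leaving out 1 library gave 0 to 3 members at d21, 0 to 40 at d22, 0 to 45 at d23 and 0 to 16 at d27, and the fit of all 12 groups gave 42 at d22. For SC d22 against d21 the count was 1 with no filter, 1 after rescaling by the median ratio, 0 in the fit of all groups, 18 with the replicate block and 0 to 5 without a clone. For SC d23 against d21 it was 0 with no filter, 0 after rescaling, 6 in the fit of all groups and 0 to 1 without a clone. The fit of all groups gave 2 for SI d21 against d14 and 2 for SI d27 against d21. Leaving out a clone gave 9 to 25 for SI d22 against d21, 0 to 29 for SI d27 against d21 and 0 to 2 for SC iPS cells against d27. Leaving out a library gave 0 to 45 for SI d14 against feeders and 1 to 30 for SI d23 against feeders. For the interaction the fit of all groups gave 28, the replicate block 29, and leaving out a clone 0 to 39.

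The replicate block, which pairs days by clone, gave 2 for SC d27 against d21 and 2 for SC iPS cells against d27, and beside these and the counts of 18 and 29 moved none by over 1.5 times. SC and SI clones share only a number, and blocking on it gave 36 at d23. Comparisons with feeders had no such fit. Of 907 alternatives for single genes 660 kept the sign and the call or its absence. In 196 the gene lost its call, and in 44 it gained one. The other 7 changed sign, all in genes not called: Mcm3 in SC d22 against d21 (-0.06 to 0.09 without a clone) and in SC d23 against d21 (-0.09 to 0.27), and E2f1 in iPS cells against feeders (-0.03 after rescaling and -0.01 to 0.10 without a library). With a pseudocount of 0.1 RPKM the mean level was 1.85 in feeders and 4.13 in SI at d27, and rescaling gave 2.39 in feeders. At the depth seen, 1 read in a 1 kb gene is at most 0.0318 RPKM.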
